A study of Saccharomyces cerevisiae with 2 samples.

Results

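The large-subunit ribosomal protein genes of Saccharomyces cerevisiae were followed here as RNA molecules of which both the capped start and the polyadenylated end were read. Members were the nuclear protein-coding genes of the R64 annotation with a systematic RPL name or one of the 5 stalk names RPP0, RPP1A, RPP1B, RPP2A and RPP2B. The rule, which used names alone and no measured value, gave 81 of 6002 genes. Of these, 53 had an intron in the coding span and 28 had none. All molecules came from 1 strain of the BY4741 background in which kanMX4 replaced SET2, grown on glucose in YPAD to mid-log phase (OD 1). SET2 encodes the methyltransferase of lysine 36 of histone H3. The labels name 2 biological replicates, whose molecules the deposited table holds as 1 pooled count for each start and end pair. No wild-type strain and no second medium was analysed here, so every value below describes the mutant and none is a change from wild type.

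Each large-subunit protein sits with ribosomal RNA in the subunit that forms peptide bonds, and growing yeast spends much of its transcription on these genes. Rap1, Fhl1, Ifh1 and Sfp1 are the factors best known to drive them, and most yeast ribosomal proteins are encoded by a pair of copies, A and B, left by an ancient genome duplication. Yeast introns are few and concentrated in ribosomal protein genes, and some of these proteins bind their own transcripts.

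The table held 6074514 molecules in 510263 distinct start and end pairs. SET2 had 0 sense molecules, where a count of 0 allows up to 3 molecules, or 4.94e-05% of the table. A molecule was termed full-span when it started before the start codon and ended past the stop codon of 1 gene, and internal-start when it began more than 100 nt inside the coding span and ran past the stop codon. With both replicates in 1 column no test between groups was possible. Intervals given for shares are 95% Wilson intervals, which for shares of molecules cover counting error alone and for shares of genes count genes. Intervals given for median counts are 95% intervals taken from the ranks of the genes. Counts are not divided by length, because each molecule is counted by its ends, and fewer cells or less RNA per cell cannot be told apart in bulk RNA.

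Large-subunit genes supplied 1290920 sense molecules, 21.2% of the table (21.2 to 21.3%). The 56 small-subunit genes, named RPS, supplied 17.8%, and the other 5865 protein-coding genes together supplied 58.9%. The median large-subunit gene had 9284 sense molecules, with quartiles of 4376 and 19186, against 10328 for the small-subunit genes and 114 for the other genes. At least 1000 molecules were found for 79 members. Members filled 36 of the first 100 places when all genes were ranked by count. Across the 80 members with at least 50 full-span molecules, counts bore almost no relation to transcript length (Spearman rho of -0.04, a description across genes). This length joins leader, coding sequence and 3′ UTR, with the leader measured along the genome.

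**Figure D1:**
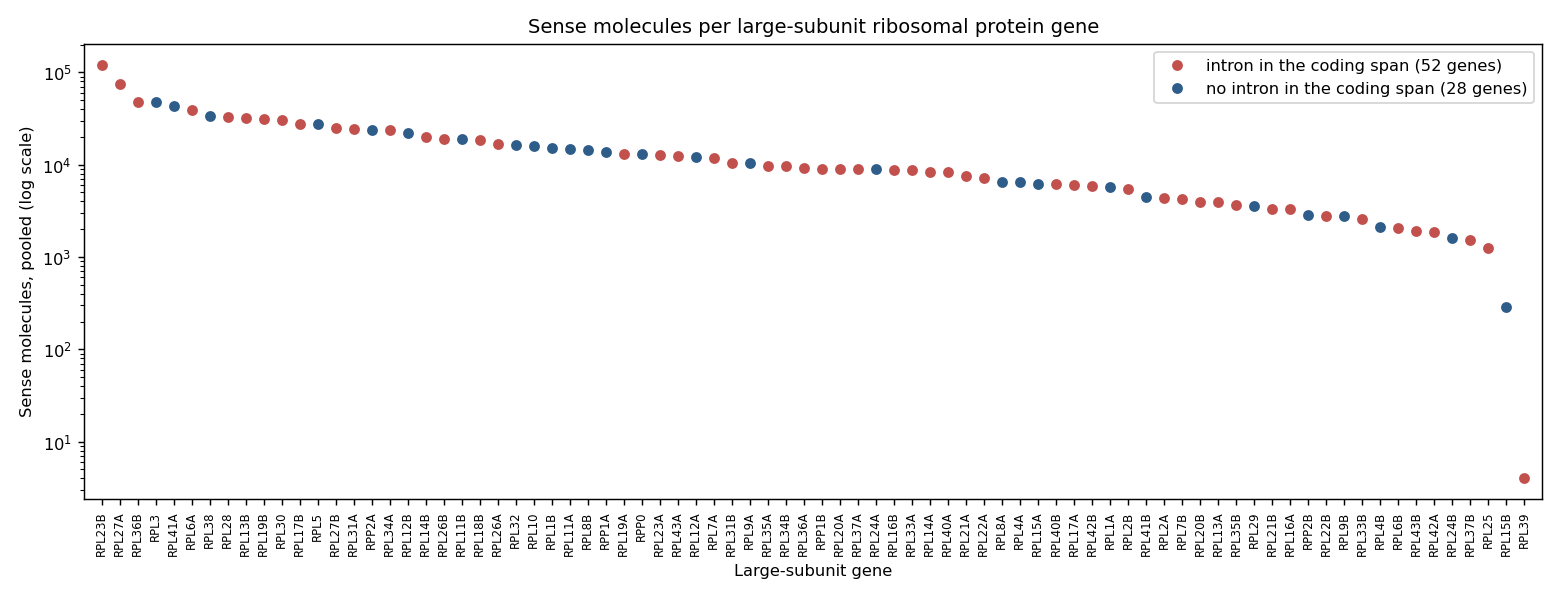
Sense molecules of 80 of the large-subunit genes (vertical log axis, pooled count of both replicates), ordered from most to fewest and coloured by whether the coding span holds an intron. RPL23B leads with 121254 molecules and RPL39 stands alone at the low end with 4.

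The member with the most molecules was RPL23B (YER117W, chromosome V, 396769 to 397653), with 121254 sense molecules. It alone made up 9.39% of the members' total. Other members with high counts were RPL27A (YHR010W, chromosome VIII, 126521 to 127492) with 74362 and RPL36B (YPL249C-A, chromosome XVI, 75699 to 76239) with 48105. RPL3 (YOR063W, chromosome XV, 444686 to 445849), a single-copy gene whose protein lies beside the peptidyl transferase centre, had 47883. RPL23B, RPL27A and RPL36B have an intron in the coding span and RPL3 has none.

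At the other end stood RPL39 (YJL189W, chromosome X, 75933 to 76474), with 4 molecules. It encodes one of the smallest ribosomal proteins, which lines the exit tunnel, and it was the only member below 50. Its divergent neighbour RPS22A, whose main start lay 589 nt from that of RPL39, had 5792 full-span molecules. RPL15B (YMR121C, chromosome XIII, 509734 to 510348) followed with 286, RPL25 with 1252, RPL37B with 1517 and RPL24B with 1612. RPL25, single-copy, encodes a protein at the tunnel exit where nascent chains emerge. Why RPL39 was low was not tested.

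Of the 11 members without a paralogue, 8 lay above the members' median of 9284 and 3 below it, namely RPL25, RPL39 and RPL29 (3536). RPL28, the cycloheximide resistance gene CYH2, had 32564 sense molecules and RPL5, whose product carries the 5S rRNA into the subunit, had 27340. RPL10, whose protein joins late in the cytoplasm, had 15928. RPL30, which binds and blocks splicing of its own transcript, had 30750.

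The stalk, the flexible arm of the large subunit that recruits translation factors, is built from RPP0 at its base and acidic proteins P1 and P2 around it. Its 5 genes had 62208 sense molecules, 1.02% of the table. RPP2A had 23735, RPP1A 13601, RPP0 12958, RPP1B 9034 and RPP2B 2880. RPP2A thus outnumbered its copy RPP2B by 8.36-fold in full-span molecules (23093 against 2761). RPP1A and RPP1B were closer, at 13455 and 8754 full-span molecules. RPL12A and RPL12B, whose shared protein binds next to the stalk base, had 11428 and 21488.

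Genes with and without an intron overlapped widely in count. The 53 genes with an intron had a median of 8980 sense molecules (interval for the median 6139 to 12783) and together 14.8% of the table. The 28 without had a median of 12599 (6140 to 15928) and 6.48%. The intervals of the medians overlap, but they treat genes as draws from a larger set, while these genes are the whole family. In this family the median was lower with an intron, and no test of the difference was run. Median length of leader, coding sequence and 3′ UTR together was 549 nt with an intron in the coding span and 766 nt without. Leaders were measured along the genome here, so any intron in a leader is counted in. Without the 4 genes with a leader over 200 nt, the genes lacking an intron had a median of 731.5 nt.

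Paralogue copies were unequal in most families. Of 35 pairs, the A copy gave more full-span molecules in 21 and the B copy in 14. The larger copy supplied a median of 75.2% of its pair's molecules (quartiles 69.9 and 86.2%), and 29 pairs differed by more than 2-fold and 10 by more than 5-fold. No pair had a counting interval that held 50%. Every full-span member molecule had a 30-base stretch at each end that occurs once in the genome, so counts of the copies can be told apart despite coding identities of 68.9 to 99.4%.

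The most uneven pair was RPL15, with 5910 full-span molecules from RPL15A and 229 from RPL15B, a ratio of 25.8. RPL6 came next with 38185 against 1747, where RPL6A led 21.9-fold. In RPL23 the B copy led, with 120356 molecules against 12429 from RPL23A, 9.68-fold. RPL41, which encodes a very short protein in coding spans of 78 nt, had 42877 molecules from RPL41A and 4465 from RPL41B. Copies of RPL15 and RPL41 have no intron in the coding span, while those of RPL6 and RPL23 have one.

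The most even pair was RPL26, where RPL26A gave 16133 molecules and RPL26B 17932, so that the A copy held 47.4% (46.8 to 47.9%). RPL40, whose genes encode ubiquitin fused to the ribosomal protein, had 7067 from RPL40A and 5696 from RPL40B. RPL2, near the peptidyl transferase centre, had 3405 from RPL2A and 4411 from RPL2B. Even the RPL26 interval lies below 50%, although a spread between replicates could not be measured.

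RPL22, whose protein binds the intron of the RPL22B transcript, had 6889 molecules from RPL22A and 2630 from RPL22B. RPL7A led RPL7B by 11199 to 3760. Both RPL7 genes have 2 introns, and one intron of each holds a small nucleolar RNA that guides methylation of ribosomal RNA. Of 11460 molecules whose span from start to end ran over SNR39 (chromosome VII, 365163 to 365251), 11199 were full-span RPL7A molecules. Another 6 lay within the intron. Over SNR59 (chromosome XVI, 173827 to 173904) ran the spans of 3956 molecules, of which 3760 were full-span RPL7B and 9 lay within the intron. Only the ends were read, so every full-span molecule counts here whether or not its intron was removed.

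**Figure D2:**
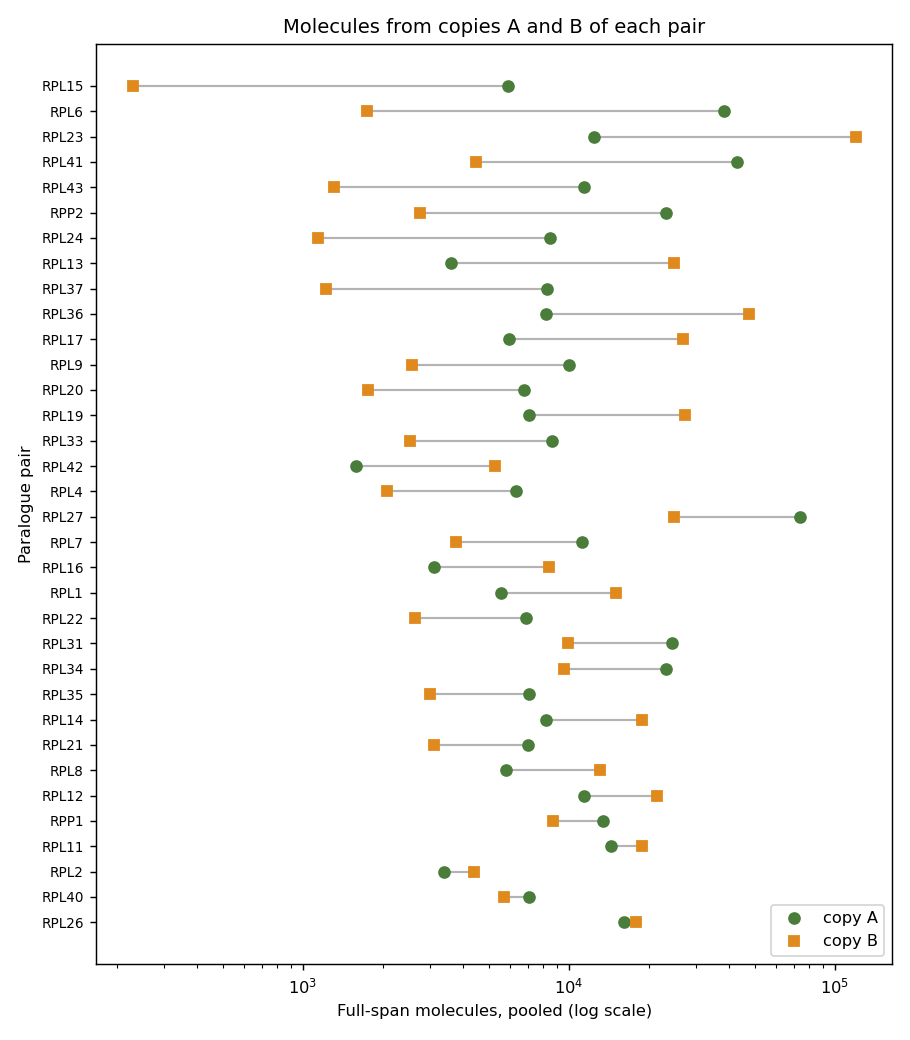
Full-span molecules from copy A (circles) and copy B (squares) of 34 paralogue pairs on a log axis, pooled over both replicates and ordered with the most uneven pair at the top. RPL15 and RPL6 span 25.8-fold and 21.9-fold, while the copies of RPL26 at the bottom differ by 1.11-fold.

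The median coding identity of a pair was 93.2%, and that of the RPL1 pair, the highest, was 99.4%. RPL1A had a median leader of 12 nt and RPL1B one of 64 nt. Below are the main starts of both, 14 bases before the base at −1 and 14 after the first transcribed base, with capitals on −1 and +1, read from the R64 genome.
RPL1A: atttaacagtcaacCAgtcgtccaaaaatg
RPL1B: ttcaggaaagactcCAtagaactagtcgca
RPL1A thus begins so near its coding region that the start codon stands at the end of the printed stretch.

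Across pairs, leaders differed by a median of 5 nt and by at most 10 nt in 25 of 35 pairs. Untranslated 3′ regions differed more, by a median of 25 nt, and by over 50 nt in 10 pairs. RPL8A and RPL8B were farthest apart, at 484 and 77 nt. The larger copy used its main start at a higher share in 23 of 35 pairs and had the longer 3′ UTR in 23.

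Member transcripts had short leaders. The median 5′ leader over all full-span member molecules was 23 nt (5th to 95th percentile 12 to 64), against 26 nt in small-subunit genes and 39 nt in other genes. Gene by gene, 70 of 80 members had a median leader of 10 to 40 nt and 10 exceeded 40 nt. The shortest were those of RPL1A at 12 nt, RPL16B at 15 nt, and RPL28 and RPL4A at 16 nt. RPP2B at 81 nt, RPP1A at 66 nt and RPP0 at 60 nt placed 3 of 5 stalk genes among the long ones.

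The main start of a gene, the single base used most, carried 49.1% of member molecules (49.0 to 49.2%). The median over genes was 41.3% (quartiles 31.0 and 60.3%), against 33.7% for small-subunit genes and 34.3% for other genes. In draws of 50 molecules the expected number of starts was 11.3 for the median member, 10.9 for the median other gene and 12.5 for the median small-subunit gene. The effective number of starts, which weighs each start by its use, was 4.11 in the median member, 5.32 in the median small-subunit gene and 5.14 in the median other gene. Pooled over molecules, the main-start share of other genes was 48.5%. The most focused starts were those of RPL21A (95.3%), RPL15A (88.3%) and RPP2B (87.2%). The most spread were those of RPL6A (19.4%), RPL13B (19.4%) and RPL19A (19.5%). These lie on the minus strand, as do the next, RPL29, RPL16A, RPL2A and RPL20B (20.3 to 22.1%). RPP2A (23.8%), on the plus strand, came after them. Of the most focused, RPL21A and RPP2B lie on the plus strand and RPL15A on the minus strand. The part of strand in start focus was not tested.

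Nearly all main starts placed a purine after a pyrimidine, the yeast initiator pattern, in 78 of 80 members (97.5%, 91.3 to 99.3%). The share was 89.1% in small-subunit genes and 96.8% in other genes. The exceptions were RPL27B and RPL37B. The main starts below show the focused, the spread and the exceptional members in that order, again with capitals on −1 and +1.
RPL21A: tggaataagagaacCAagacaaaaataact
RPL15A: caatctaagaaaacCAcgatcaaacaaata
RPP2B: cagttacagatcgtTAaggaatagtccgcg
RPL6A: tacattaggcgaaaCAacaaagtaatagcc
RPL13B: acattaataggaaaTAatttcggaaaagta
RPL19A: ttcacatagaaagtTGattaagaactccaa
RPL27B: tggtgaaaagaaagAGtcgctcaaagaaat
RPL37B: taaagaacaaagagGTaaacgaatatataa
The focused and the spread main starts alike carry the pattern, so the letters at the main start do not separate these 6 genes. Over all full-span molecules the pattern stood at 97.9% in RPL21A, 95.6% in RPL15A and 96.2% in RPP2B. It stood at 70.5% in RPL6A, 53.45% in RPL13B and 61.1% in RPL19A. RPP2A, also with a spread start (23.8%), had the pattern at 97.2% of molecules. The part of the pattern in start focus was not tested. CA was the commonest pair of letters, at 41 of 80 main starts (51.2%, against 50.9% of other genes). CG stood at 11 (13.8%, against 5.89%). The 15 bases after the start held 51.2% A and 15.8% T, where other genes had 41.7% A and 22.8% T. An A stood 3 bases before the start codon in 64 of 80 members (80.0%, against 67.4%), and 33 (41.2%) had AAA directly before it, against 14.5% of other genes.

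**Figure D3:**
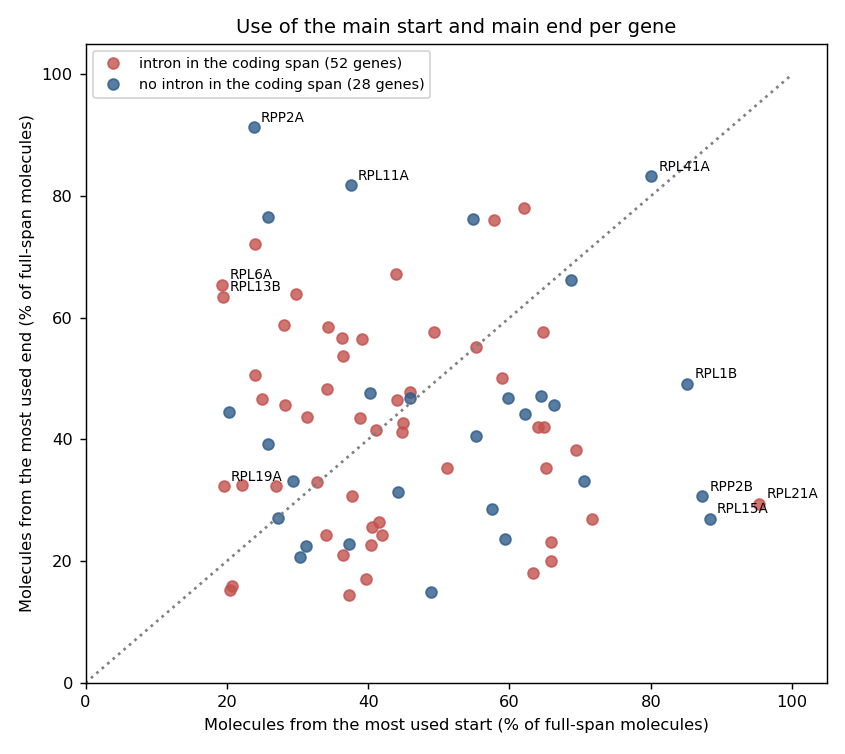
Share of full-span molecules from the most used start (horizontal axis, %) and the most used end (vertical axis, %) for the 80 members with at least 50 full-span molecules; the dotted line marks equal shares. RPL21A has the sharpest start at 95.3% and RPP2A the sharpest end at 91.3%.

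The 4 longest leaders stood far from the rest: RPL24A at 504 nt, RPL24B at 422 nt, RPL29 at 369 nt and RPL32 at 365 nt. All 4 encode proteins of the mature subunit, and RPL24A and RPL24B are copies of one another. Leaders over 200 nt occurred in 4 of 80 members (5%), 5 small-subunit genes (9.09%) and 44 other genes (1.96%). The annotation used gives none of the 4 an intron in the coding span. Each leader held a 5′ splice site-like GTANGT followed downstream by the yeast branch site TACTAAC, searched on the transcribed strand. These stretches are printed with the motif in capitals, the donor first and the branch site second for each gene.
RPL32 donor: tgaacgataaaaGTATGTgacatatagaat
RPL32 branch: cggagctgttaTACTAACaaacttttaatt
RPL29 donor: tacagttagaaaGTACGTtatattatcatg
RPL29 branch: tgaatcattttTACTAACctttaatgacca
RPL24A donor: ataacttgagagGTATGTccctatatgatg
RPL24A branch: aagcatagactTACTAACattttttttttc
RPL24B donor: ttgaattgaaacGTATGTcgcgtgcccatt
RPL24B branch: ccaaaattgtgTACTAACatcaatttgtat

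The motifs lie at chromosome II 45645 and 45934 on the plus strand for RPL32, and on the minus strand at chromosome VI 223771 and 223495 for RPL29. Those of RPL24A are at chromosome VII 438397 and 437991, and those of RPL24B at 788178 and 787857, also on the minus strand. For this search leaders were measured from the main start, not as the median over molecules. Of all 666 genes with such a leader of at least 60 nt, 13 (1.95%) held both motifs in this order, 4 of them among 8 members. Measured from the main start, 58 genes had a leader over 200 nt, 5 more than by the median, and 13 of the 58 (22.4%) held both. The donor letters were widened from GTATGT after RPL29 was seen to carry GTACGT, and with GTATGT alone 12 genes and 3 members remained. The distances above run along the genome, so a leader with a removed intron would be shorter than stated. A second set of full-span molecules began close to the first CAG or TAG after the branch site, at 361 molecules in RPL29 (10.97% of its full-span molecules), 265 in RPL24A (3.11%), 68 in RPL24B (5.95%) and 26 in RPL32 (0.171%). The main start of RPL29 lies inside the annotated reading frame MIN10 on the same strand.

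**Figure D4:**
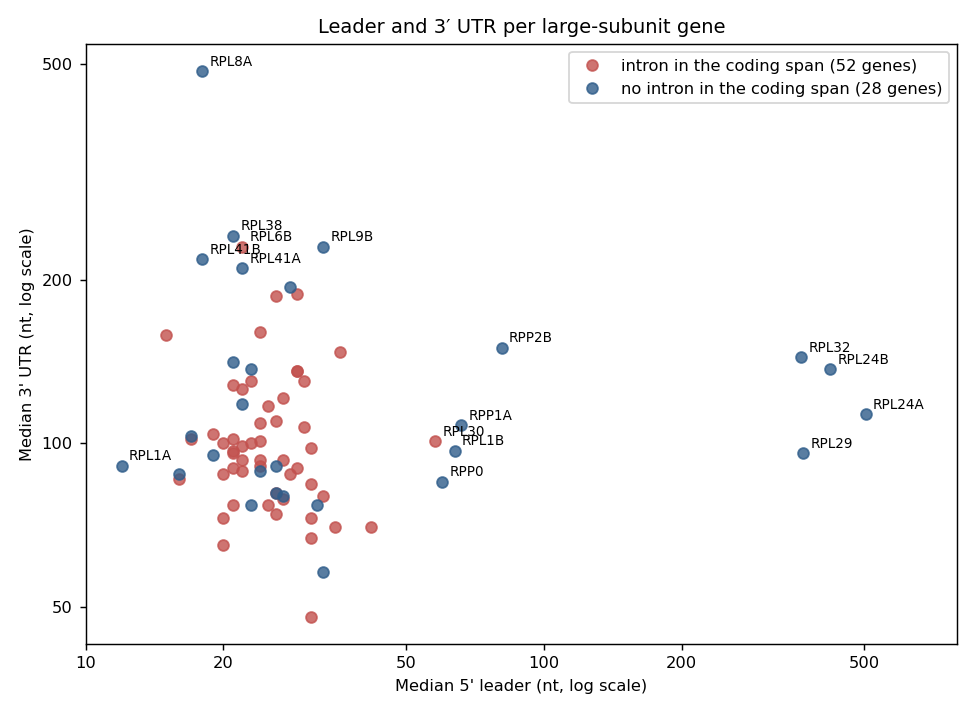
Median 5′ leader (horizontal log axis, nt) against median 3′ UTR (vertical log axis, nt) of the 80 members with at least 50 full-span molecules, coloured by intron in the coding span. RPL24A, RPL24B, RPL29 and RPL32 stand apart on the right with leaders of 365 to 504 nt, and RPL8A at the top with a 3′ UTR of 484 nt.

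The median 3′ UTR over member molecules was 100 nt (5th to 95th percentile 67 to 210), against 101 nt in small-subunit genes and 115 nt in other genes. Genes with an intron had 98 nt and those without 118 nt. RPL8A had the longest at 484 nt, followed by RPL38 at 241 nt, and by RPL6B and RPL9B at 230 nt each. The shortest were RPL34B at 48 nt, RPL15B at 58 nt and RPL40A at 65 nt. RPL41A and RPL41B had 210 and 218 nt, so their untranslated ends were longer than their coding spans of 78 nt.

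Ends were about as sharp as starts. The main end held a median of 42.0% of a member's molecules (range 14.5 to 91.3%), and 36 members had a sharper main end than main start. RPP2A (91.3%), RPL41A (83.3%) and RPL11A (81.8%) had the sharpest and RPL33B the broadest (14.5%). In 15 members between 5% and 95% of molecules ended more than 150 nt past the stop codon. Since both ends belong to 1 molecule, the share of far ends could be compared between the main start and other starts of the same gene. The counting intervals of both shares were apart in 6 of the 15, with differences of -2.88 to 9.78 percentage points. RPP2B molecules from the main start reached far ends in 41.9% and those from other starts in 32.1%, and RPL2A had 35.3 and 27.7%. RPL36B ran the other way at 30.1 and 32.8%. No common direction appeared.

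At 24.4% of member molecules the genome just past the end was rich in A (at least 6 A among 10 bases), against 20.7% over all genes. RPP2A (97.7%) and RPL17B (96.9%) were nearly all of this kind. RPL41A and RPL11A, which with RPP2A had the sharpest ends, had 86.7 and 88.05%. RPL35A, with 78.0% of molecules at its main end, had 6.545%, and RPL33B, with the broadest ends, 0.595%. A genomic run of A can prime a cDNA inside a longer RNA, and its part in these ends was not tested. TATATA, an efficiency element of yeast 3′ ends, occurred within 100 nt before the main end in 38 of 80 members (47.5%) and in 48.1% of other genes.

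Starts inside the coding span were less frequent than in the bulk of genes but uneven. Of all internal-start and full-span molecules of the members, 5.30% were internal-start (5.26 to 5.34%). The share was 3.51% in small-subunit genes, 16.1% in other genes, and 7.03% in other genes of like coding length. Gene by gene the median was 3.58% in members and 14.3% in other genes of like coding length. The shares rose above 10% in 19 members and above 20% in 9. The highest were RPL20B at 54.0% (52.4 to 55.5%), RPL19A at 45.9% (45.1 to 46.8%) and RPL43B at 28.6% (26.6 to 30.7%).

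In genes with introns, many of these molecules began where the intron ends. Of 45278 internal-start molecules in the 53 intron genes, 23552 (52.0%, 51.6 to 52.5%) began in the 25-nt window from 20 nt before to 4 nt after the first base of the next exon. The equal window before held 100 molecules and the equal window after held 1692. The share in the window was 40.6% in small-subunit genes with an intron and 5.49% in the 182 other genes with an intron. The window was chosen after the values were seen. Without these molecules the internal-start share of the intron genes fell from 5.08 to 2.50%.

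Genes with very few coding nt before the intron supplied most of them, though not every such gene did. In 20 genes with at most 10 coding nt before the intron, 21894 molecules began in the window beside 161485 full-span molecules, 11.9% of both together. In the 33 genes with more coding nt before the intron the numbers were 1658 and 684506, or 0.242%. Among the 20 genes the share ran from 0 to 44.5% (median 8.95%), where the 0 is RPL39, which had 4 molecules in all. RPL13A, which like RPL13B has 4 coding nt before the intron, had 4 window molecules beside 3596 full-span, and RPL2A had 48 beside 3405. RPL19A, RPL13B, RPL19B, RPL35A, RPL20B and RPL20A held 75.8% of the molecules in the window. RPL19A had 5451 of them beside 7112 full-span molecules, RPL13B had 4703 beside 24741, and RPL20B had 1408 beside 1759. The sequences below show the intron end of 4 of these genes, with exon bases in capitals.
RPL19A: acatgactttaacagGGCTAATTTACGTAC
RPL13B: tttttatgattatagCTATCTCCAAGAATT
RPL19B: aactttttttcacagGGCTAACTTGCGTAC
RPL35A: ttatcctattaatagGCCGGTGTTAAAGCT

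The most used base in the window differed between the genes, and in those named here it went with the strand. Relative to the first exon base, RPL19B began at 0 in 2592 molecules and RPL35A at −1 in 2510, both on the plus strand. On the minus strand, RPL13B began at −8 in 2960, RPL19A at −11 in 2998 and RPL20B at −13 in 625. The RPL19 copies, which lie on opposite strands, thus peaked 11 nt apart. The part of strand in these offsets was not tested. Of all window molecules 29.3% began with the initiator pattern, against 86.4% of full-span member molecules. How reads were aligned across splice junctions is not given in the sources used here, and its part in these starts was not tested.

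**Figure D5:**
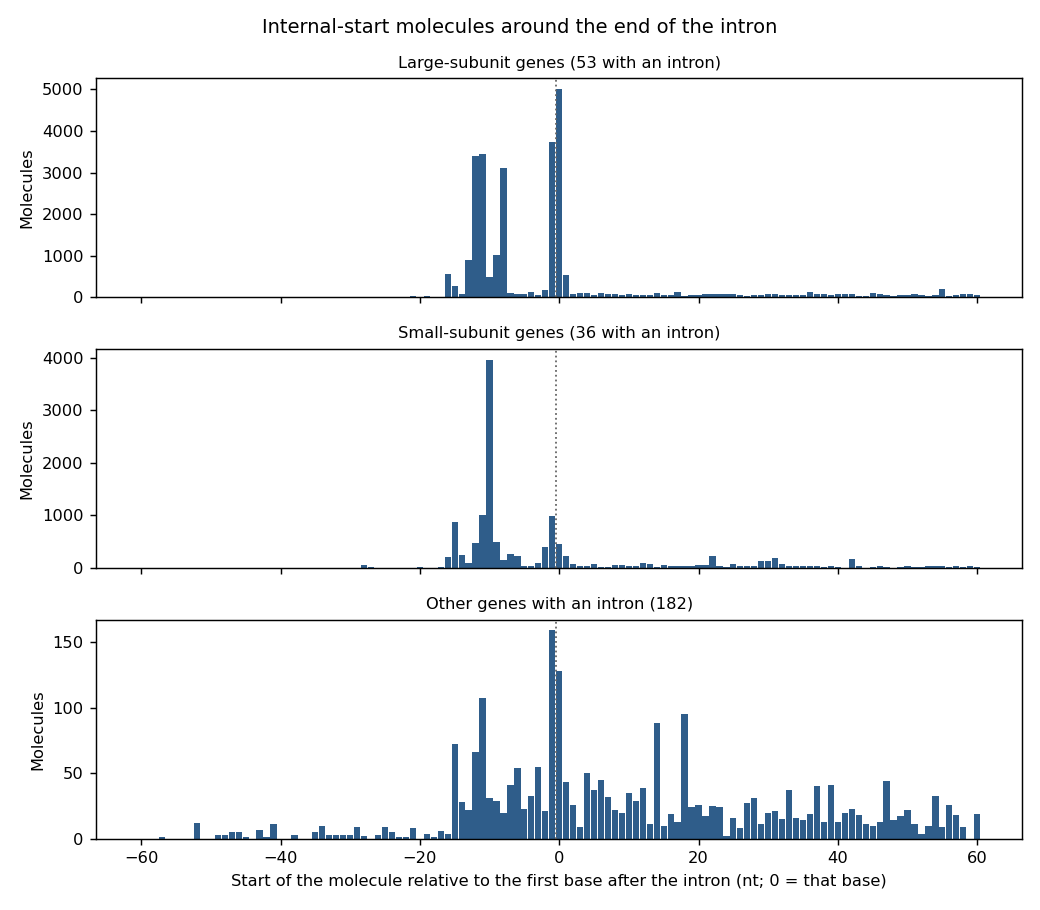
Internal-start molecules (vertical axis, pooled count) by distance of their start from the first base after the intron (horizontal axis, nt) in large-subunit genes, small-subunit genes and other genes with an intron, each panel with its own scale. In the 53 large-subunit genes 23216 molecules fall between −16 and +1.

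Among genes without an intron, internal-start molecules were concentrated by count in RPL3, with 12652 molecules and a share of 26.8% (26.4 to 27.2%). RPL24B came near this share, at 24.1% (22.03 to 26.35%), with 363 molecules. The commonest internal start of RPL3, 735 nt inside, had 762 molecules. RPL10 had 645 molecules at a start 134 nt inside and RPP0 had 186 at one 447 nt inside. These single starts made up a small part of each gene's molecules.

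Molecules that ended inside a member's coding span were rare, at 1685, and 80.4% of them ended at A-rich genome sequence. A further 99 had both ends inside. Counting both kinds, RPL26B had 510 molecules that ended in its intron, of which 462 ended at 1 base (chromosome VII, 555981), 169 nt past the first base of the start codon and A-rich.

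Antisense molecules were rare too. Members had 1313, or 0.102% of their sense and antisense molecules, against 1.65% in other genes and 0.00962% in small-subunit genes, and 50 members had none. The highest shares were 1.70% in RPL19B (544 molecules), 1.36% in RPL31A (339 molecules) and 1.04% in RPL2A. In RPL19B and RPL31A the main antisense start lay 518 and 483 nt past the stop codon. None of the antisense molecules of RPL19B and RPL31A reached over the start codon.

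Several members lie beside another ribosomal protein gene. RPL24A and RPL30 diverge with main starts 595 nt apart, and give 8525 and 30413 full-span molecules. RPS16B and RPL13A diverge 588 nt apart with 82766 and 3596, and their duplicates RPS16A and RPL13B diverge 666 nt apart with 9823 and 24741. In the first arrangement the small-subunit gene is the larger and in the second the large-subunit gene. RPL13A and RPP1A converge, with main ends 170 nt apart.

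The 400 bases before each main start were searched on both strands for motifs of known regulators. The Rap1 core ACCCNNACA occurred in 33 of 80 members (41.2%), in 23.6% of small-subunit genes and in 5.30% of all genes searched. Its median distance to the main start was 264 nt in members and 156 nt in other genes. The Fhl1 motif GACGCAAA stood in 4 members (5%, all genes 1.60%), those of RPL11A, RPL15A, RPL28 and RPL8A. The Reb1 motif TTACCCG stood in 5 (6.25%, all genes 12.04%), and the Abf1 motif, TCA and ACG separated by 6 bases, in 11 (13.8%, all genes 23.7%). A run of 8 A or T occurred in 43 (53.8%, all genes 42.1%). Neither the Rap1 nor the Abf1 letters occurred before 40 members, among them RPL21A, RPL24A and RPL30. RPL15A, RPL19A, RPL24B, RPL34B, RPL4A, RPL4B and RPL8B had the Abf1 letters without the Rap1 core. A match is a description of the letters and says nothing about binding.

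The genes for these regulators had 3 to 980 sense molecules, all below the members' lower quartile of 4376. HMO1 and ABF1 exceeded the member RPL15B (286), and all but SFP1 exceeded RPL39 (4). HMO1, an HMG-box protein of ribosomal protein promoters, had 980 sense molecules, of which 597 were full-span, with a median leader of 23 nt. RAP1 had 49 sense molecules and 6 full-span, FHL1 80 and 0, IFH1 49 and 0, and SFP1 3 and 0. ABF1 had 394 and 16, REB1 120 and 40, and TBF1 45 and 0. The Ifh1 competitor CRF1 had 9 and 0, and the repressor genes DOT6, TOD6 and STB3 had 51, 165 and 25 sense molecules with 15, 24 and 7 full-span. HMO1 is the shortest of the 12, at 741 coding nt, and the others run from 1404 to 3258 nt. The part of transcript length in these low counts was not tested.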

How the data were processed

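Transcript isoform sequencing reads the cap-proximal and poly(A)-proximal ends of 1 cDNA together. The authors deposited 1 whole-number count per start and end pair on 16 chromosomes, pooling both replicates in 1 value column. The submitters' processing notes name CASAVA, Novoalign 2.07.10 and build R64, without roles. Positions were checked against R64: 75.5% of 11466 start sites with at least 30 full-span molecules had the initiator, at most 28.3% after shifts of up to 20 nt.

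Molecules were classed against 6002 coding spans with Python 3.11.15, numpy 2.4.6, pandas 2.3.3, scipy 1.17.1 and Biopython 1.88, and figures were drawn with matplotlib 3.10.9. Class rules were tested on simulated data. Gene-level medians used at least 50 full-span molecules. Named genes were the extremes of each measure plus well-known genes. Of these, 1 gene and 1 sequence are not reported here. Members, gene lists and measures were chosen with earlier results of these data known. Copies from PCR may be counted, as no molecular identifiers are mentioned. The alternatives tried are a molecule minimum, isoforms counted once, other start limits, and omission of RPL23B.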

Additional observations from a re-analysis of the deposited data

How the results depend on the processing

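Of 30 alternatives over 9 results (28 planned and 2 chosen after seeing the data), 10 left the value within its interval or 1.5-fold and 20 moved it. With isoforms of at least 2 molecules, the members' share of the table was 21.67%, the internal-start share 5.029% and the main-start share 49.36%. With each isoform counted once these were 9.001%, 26.11% and 13.63%, and the median leader and 3′ UTR were 29 and 106 nt. Without RPL23B they were 19.65%, 5.795% and 47.23%, with 24 and 103 nt. The internal-start share was 6.038% counting starts at any distance inside, 3.033% over spliced distance with intron starts left out, and 3.521% (chosen after seeing the data) without starts near an intron's end. Medians of gene medians were 25 nt for the leader and 98.5 nt for the 3′ UTR. The main-start share was 53.93% with starts within 2 nt joined and 41.34% as the median over genes. The count of pairs led by copy A stayed at 21, or 19 with each isoform counted once.

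No paired analysis was possible because both replicates of the 1 group share 1 pooled column. No replicate was left out, for the same reason, and the spread between replicates is unknown. Intervals for shares of molecules cover counting error alone, PCR copies are not separated from molecules, and recovery by transcript length was not tested. At this depth a gene with 0 molecules is bounded at 4.94e-05% of the table, and RPL39 with 4 molecules gives no leader, focus or pair value.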
